A study of Mus musculus with 8 samples.

Results

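The skeletal myosin heavy chain cluster is a run of 6 genes on mouse chromosome 11, Myh3, Myh2, Myh1, Myh4, Myh8 and Myh13, and its contact with the nuclear lamina was followed gene by gene and as a single locus. The members were taken by name from the GENCODE vM1 annotation of mm9, where all 6 were present among 22367 protein-coding genes. The cluster had been picked out with the overlap of its gene bodies with lamina associated domains (LADs) in these same lists known, so those values are a description and were not tested. LaminB1-DamID, which marks DNA close to the nuclear lamina by fusing LaminB1 to a bacterial methylase (Dam) that methylates GATC, had been carried out in 3T3-L1 cells, an established mouse fibroblast line that becomes adipocytes in culture.

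The preadipocytes were undifferentiated cells labelled as untreated. The other 3 groups were differentiated with insulin, dexamethasone, IBMX and rosiglitazone and harvested at day 9. These were adipocytes carrying a control shRNA, adipocytes with Tmem120a knocked down (the single knockdown), and adipocytes in which its paralog Tmem120b was knocked down as well (the double knockdown). Tmem120a encodes a transmembrane protein of the nuclear envelope, and the shRNAs were expressed before differentiation began. Lentivirus for Dam or for the LaminB1-Dam fusion was added to the differentiating cells at day 6, and to the preadipocytes while undifferentiated. Because the preadipocytes had no control shRNA by their label, differentiation and the shRNA vector cannot be told apart when preadipocytes and adipocytes are compared. By the study's text, preadipocytes were also kept below confluence and harvested sooner after transduction than adipocytes. The labels instead give the same transduction time for all libraries. Cell density and, by the text, time with Dam therefore cannot be told apart from differentiation either. All adipocytes shared the adipogenic treatment and carried an shRNA. Each of the 4 LAD lists rests on 1 Dam and 1 LaminB1-Dam library, so no value has a replicate, no spread stands beside it, and no p-value is given. The lists give positions only. Neither depth nor LAD strength is known from them, and the adipocyte state and the loss of Tmem120a could not be checked.

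Myosin heavy chains are the motor proteins of the thick filament of muscle. In mammals the developmental and fast skeletal genes lie side by side in 1 cluster, apart from Myh7, which serves slow fibres and the heart, and muscle fibres use them at different stages and in different fibre types. Myh3 encodes the embryonic and Myh8 the perinatal chain. Myh2, Myh1 and Myh4 encode the adult fast chains of type IIa, IIx and IIb fibres, and Myh13 the chain of extraocular muscle. LADs are long stretches of mostly silent chromatin at the nuclear periphery, and developmental genes of other lineages often lie in them.

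All 6 genes lie on the + strand, in the order Myh3, Myh2, Myh1, Myh4, Myh8 and Myh13, between bases 66891802 and 67185088 of mm9 chromosome 11. The locus is 293 kb long, of which 179 kb are gene bodies and 114 kb lie between genes. Myh3 (ENSMUSG00000020908.7) spans bases 66891802 to 66915793 and is set apart from the next gene by 68.7 kb. Myh2 (ENSMUSG00000033196.10) spans 66984529 to 67011019, and Myh1 (ENSMUSG00000056328.7) follows 2.53 kb later, from 67013554 to 67038078. Myh4 (ENSMUSG00000057003.5) spans 67051314 to 67073948, Myh8 (ENSMUSG00000055775.9) spans 67090626 to 67122136, and Myh13 (ENSMUSG00000060180.5) spans 67135160 to 67185088. The genes are alike in build. Their longest coding transcripts had 39 to 41 exons and 5811 to 5826 coding bases. Across the coding sequence Myh2 and Myh1 were the closest pair, with 91.0% identical bases, and Myh1 and Myh4 shared 90.1%. Myh8 shared 87.7% to 88.9% with these 3 adult genes, whereas Myh3 shared 77.2% to 80.7% and Myh13 77.2% to 79.6% with the other members.

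The promoters of the adult and perinatal genes also share a run of sequence that the choice of members did not use. In the RefSeq promoter table (build GRCm38.p6, 250 bases before to 50 after each start), each member had 1 entry, and each entry matched mm9 chromosome 11 exactly once. A run of 14 bases, TTCTAATTATATCC, was found in the promoters of Myh2, Myh1, Myh4 and Myh8 and in no other entry of 32851 promoters searched on both strands, a share of 0.0122%. It was picked as the longest run shared by at least 4 members, and the share is made up of those members. Its rarity was therefore not tested. Counted from the RefSeq start, the run began at position -125 in Myh2, -160 in Myh1, -158 in Myh4 and -54 in Myh8. The windows printed here hold 38 mm9 bases on each side of it and end before the start site, with the shared run in capitals, 5′ to 3′ on the + strand. They are shown because these 4 genes carry the same run and differed in LAD state.
Myh2, chr11:66984366-66984455: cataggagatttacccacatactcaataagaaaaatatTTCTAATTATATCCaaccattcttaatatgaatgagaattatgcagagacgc
Myh1, chr11:67013406-67013495: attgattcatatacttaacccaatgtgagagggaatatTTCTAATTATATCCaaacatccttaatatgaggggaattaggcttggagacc
Myh4, chr11:67051118-67051207: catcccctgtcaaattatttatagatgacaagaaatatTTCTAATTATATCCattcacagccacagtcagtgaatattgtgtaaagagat
Myh8, chr11:67090534-67090623: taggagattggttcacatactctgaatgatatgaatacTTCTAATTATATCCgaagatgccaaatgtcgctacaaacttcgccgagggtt

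These windows fell on different sides of the LAD borders. The Myh2 window lay wholly in a LAD in preadipocytes, control adipocytes and the double knockdown, and wholly outside in the single knockdown. The Myh4 window lay in a LAD in control adipocytes and the single knockdown and in neither of the other lists. The Myh8 window lay outside only in the double knockdown. The Myh1 window lay outside in all 4 lists. Among motifs searched on both strands of the whole 300-base entries, TATAAA was found in 5 members, all but Myh13, and in 13.6% of all promoters. CANNTG, the E-box that myogenic factors of the MyoD family bind, was found in Myh3, Myh4, Myh8 and Myh13 and in 72.3% of all promoters. The MEF2 consensus was found in Myh1, Myh4 and Myh8 and in 3.19% of all promoters, and the CArG box in Myh4 and Myh13 and in 1.63%. In Myh1, Myh4 and Myh8 the MEF2 match did not overlap the shared run. These are matches of letters, and a gene without a match lacks only those letters in that window.

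Viewed as a single locus, the cluster was covered most in control adipocytes. LADs covered 82.3 kb of it in preadipocytes, or 28.0%. In control adipocytes they covered 127 kb, or 43.2%. In the single knockdown they covered 87.4 kb, or 29.8%, and in the double knockdown 86.4 kb, or 29.5%. The adipocyte share was therefore 15.1 points above that of preadipocytes (26.4 points with gaps under 50 kb closed), and the differences from control adipocytes were -13.4 points in the single and -13.7 points in the double knockdown. The double minus the single knockdown was -0.352 points, or -1.03 kb, although their LADs lay over different genes, and it turned to 5.91 points with LADs of at least 30 kb only. With gaps under 50 kb closed the knockdowns differed from control adipocytes by -24.6 and -25.0 points, and with LADs of at least 100 kb only, none remained in the locus and all these differences were 0. In the lists as deposited, the knockdowns against preadipocytes were 1.76 and 1.40 points higher, and over the gene bodies alone these differences turned to -0.567 and -2.55 points. With LADs of at least 30 kb only, the double knockdown was 7.97 points above preadipocytes. Gene bodies and the stretches between them followed the same order between preadipocytes and adipocytes, at 26.0% and 41.2% of gene bodies and 31.3% and 46.4% of the sequence between genes. In the knockdowns 25.4% and 23.4% of the gene bodies were covered, and 36.7% and 38.9% of the sequence between genes.

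Changes of at least 10 points, a lower bar than the locus differences, were not rare over the genome. The share of windows that changed by as much as the locus was not counted. Of 8989 windows of the same length, 11.3% rose by at least 10 points from preadipocytes to adipocytes and 12.3% fell by as much. From adipocytes to the single knockdown 13.5% of windows fell by at least 10 points and 12.2% rose, and to the double knockdown 17.0% fell and 15.7% rose. These windows count each list once, as does the locus. Over the genome the lists also differed in the number of LADs. There were 3914 in preadipocytes, 2542 in control adipocytes, 5723 in the single and 6971 in the double knockdown. The part of this list-wide difference in the locus differences was not tested.

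**Figure D1:**
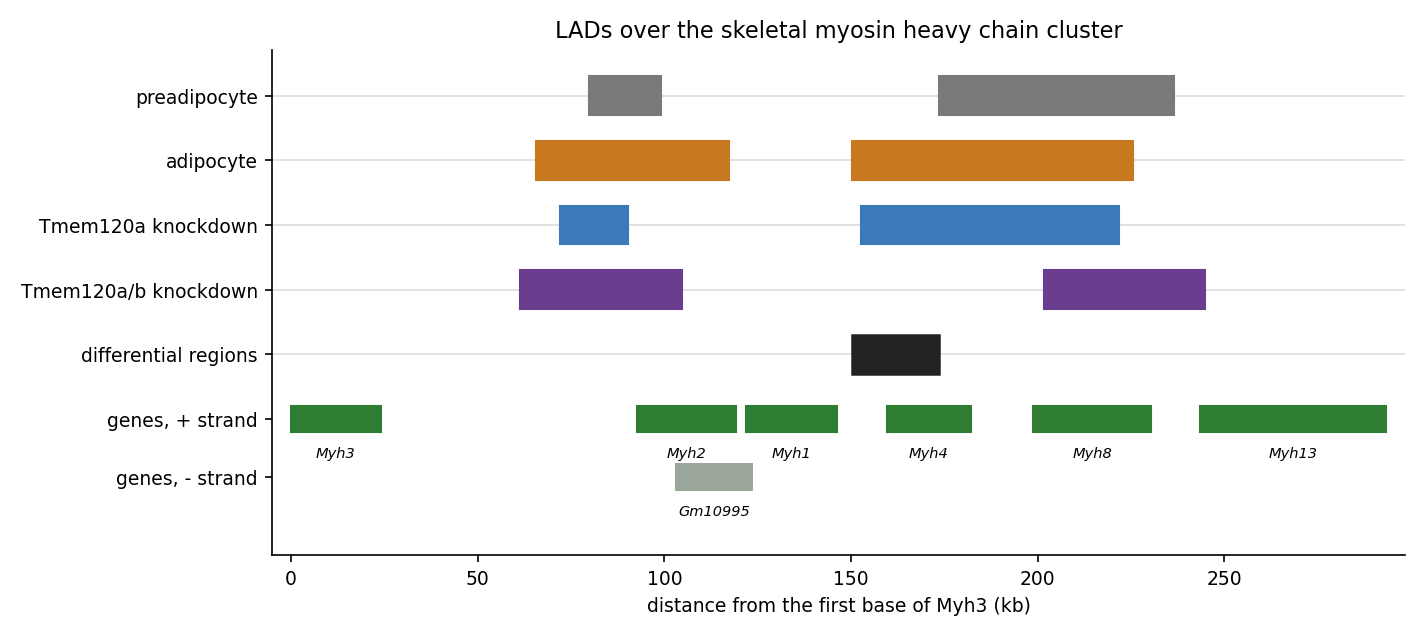
Map of the locus, with distance from the first base of Myh3 in kb along the horizontal axis and 1 row per LAD list. Filled bars are LADs, the black bar is the deposited differential region found in LADs of adipocytes and not of preadipocytes, and the lower rows show the 6 members on the + strand and Gm10995 on the - strand. Every list has 2 LADs in the locus, the first ending before or inside Myh2 and the second lying over Myh4 and Myh8 or, in the double knockdown, over Myh8 and the start of Myh13.

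Each list held exactly 2 LADs in the locus, and the differences between lists were shifts of their borders (map of the locus). The first LAD began between Myh3 and Myh2 in every list. It ran from 66971667 to 66990924 in preadipocytes (19.3 kb) and ended in exon 10 of the 40 exons of Myh2. In control adipocytes it ran from 66957516 to 67009051 (51.5 kb) and ended in intron 39, close to the end of Myh2. It ran from 66963735 to 66982110 (18.4 kb) in the single knockdown and ended 2.42 kb before Myh2. For the double knockdown it ran from 66953132 to 66996397 (43.3 kb) and ended in intron 17.

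The second LAD lay over Myh4 and Myh8. In preadipocytes it ran from 67065324 to 67128331 (63.0 kb), from exon 22 of the 39 exons of Myh4 to the stretch between Myh8 and Myh13. In control adipocytes it ran from 67042067 to 67117190 (75.1 kb), from -9.25 kb relative to the start of Myh4 to exon 34 of Myh8. For the single knockdown it ran from 67044469 to 67113507 (69.0 kb), from -6.84 kb relative to the start of Myh4 to exon 30 of Myh8. For the double knockdown it ran from 67093451 to 67136566 (43.1 kb), from exon 4 of Myh8 to intron 1 of Myh13.

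The shifts can be read against the grain of the method. DamID resolves no finer than the fragments between GATC sites, and on chromosome 11 the LAD borders sat at GATC for 98.9% to 99.5% of borders in the 4 lists. The locus holds 783 GATC sites, or 26.7 per 10 kb, against 24.9 per 10 kb on the whole chromosome. Its median fragment is 260 bp and its longest 3220 bp. The 6 genes differ little in this respect, with 27.6 to 28.5 sites per 10 kb.

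The last border of the first LAD lay 18.1 kb further on in adipocytes than in preadipocytes, a distance of 50 GATC fragments. In the single knockdown it lay 26.9 kb, or 76 fragments, before the adipocyte border, and in the double knockdown 12.7 kb, or 36 fragments, before it. These 4 borders are shown because they decide how much of Myh2 lies in a LAD. GATC is in capitals, on the + strand of mm9, and the border falls within the GATC that starts at base 31 of each line.
Preadipocytes, chr11:66990892-66990955: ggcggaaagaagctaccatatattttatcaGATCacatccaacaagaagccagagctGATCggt
Adipocytes, chr11:67009019-67009082: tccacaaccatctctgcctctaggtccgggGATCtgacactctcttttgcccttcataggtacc
Tmem120a knockdown, chr11:66982078-66982141: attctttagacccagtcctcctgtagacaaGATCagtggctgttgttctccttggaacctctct
Tmem120a/b knockdown, chr11:66996365-66996428: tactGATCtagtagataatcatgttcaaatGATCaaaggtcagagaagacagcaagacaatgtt

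The first border of the second LAD differed between the lists by other amounts. It lay 23.3 kb (63 fragments) earlier in adipocytes than in preadipocytes, 2.40 kb (8 fragments) later in the single knockdown than in control adipocytes, and 51.4 kb (135 fragments) later in the double knockdown. It decides whether Myh4 lies in a LAD, and the same window around each border is printed in the same form. The border positions in preadipocytes and in the double knockdown lie in exons of Myh4 and Myh8, and those in control adipocytes and in the single knockdown between Myh1 and Myh4.
Preadipocytes, chr11:67065291-67065354: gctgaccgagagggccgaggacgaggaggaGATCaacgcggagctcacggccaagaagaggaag
Adipocytes, chr11:67042034-67042097: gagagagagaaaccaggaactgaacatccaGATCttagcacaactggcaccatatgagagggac
Tmem120a knockdown, chr11:67044436-67044499: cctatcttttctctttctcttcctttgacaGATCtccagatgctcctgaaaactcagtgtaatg
Tmem120a/b knockdown, chr11:67093418-67093481: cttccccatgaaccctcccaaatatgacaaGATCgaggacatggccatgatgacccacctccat

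The last border of the second LAD lay 11.1 kb earlier in adipocytes than in preadipocytes, 3.68 kb earlier still in the single knockdown, and 19.4 kb later than in adipocytes in the double knockdown. As no condition was repeated, none of these distances can be set against the spread between cultures.

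Counted gene by gene, Myh2, Myh4 and Myh8 met a LAD in preadipocytes, 3 of the 6 members, where 26.2% of all protein-coding genes did. The same 3 met a LAD in control adipocytes (23.3% of all genes). With Tmem120a knocked down, Myh4 and Myh8 did (27.5%), and in the double knockdown Myh2, Myh8 and Myh13 (29.5%). At least 50% of the body lay in a LAD for Myh8 in preadipocytes (23.1% of all genes), for Myh2, Myh4 and Myh8 in control adipocytes (21.3%), for Myh4 and Myh8 in the single knockdown (22.8%), and for Myh8 in the double knockdown (24.2%). The annotated start site lay in a LAD for Myh2 and Myh8 in preadipocytes (23.3% of all genes), for Myh2, Myh4 and Myh8 in control adipocytes (21.2%), for Myh4 and Myh8 in the single knockdown (22.6%), and for Myh2 and Myh13 in the double knockdown (23.8%). The counts by any overlap moved with the settings. With LADs of at least 30 kb only, 2 members met a LAD in preadipocytes (25.4% of all genes). With LADs of at least 100 kb only, 0 members did in any list, against 20.1% to 21.8% of all genes. In the other direction, 4 members did in control adipocytes with gaps under 50 kb closed (23.7%). Neighbouring members share LADs and are not independent, and they were chosen with these values known, so nothing further is read from the counts.

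**Figure D2:**
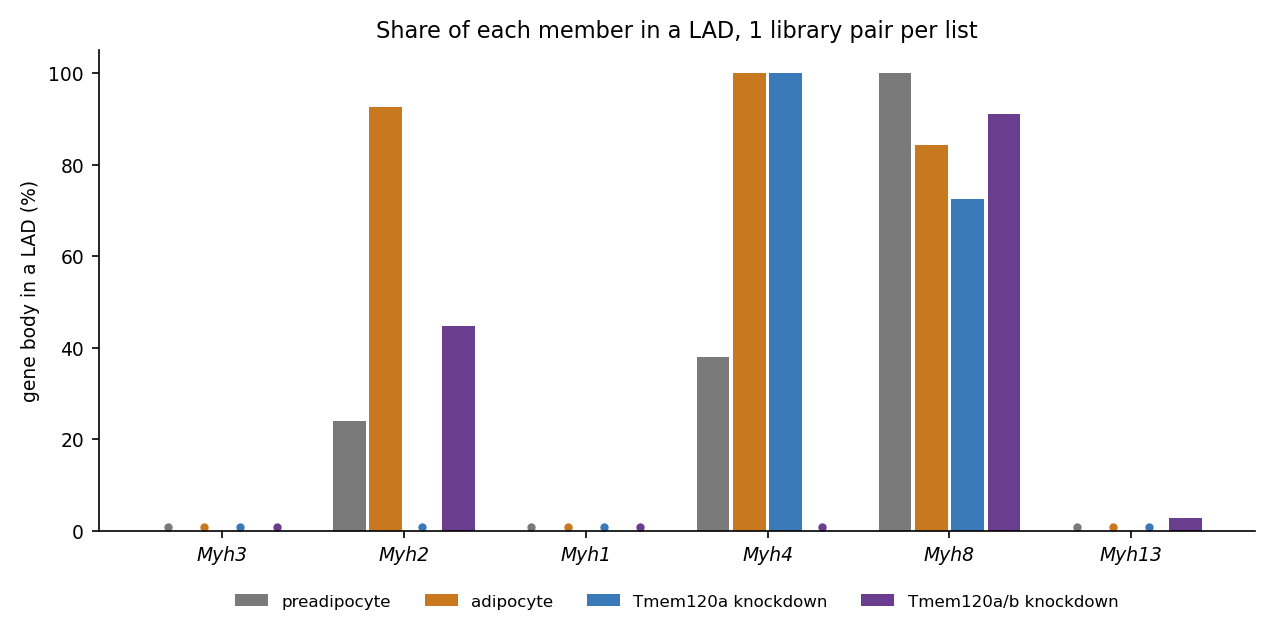
Bars give the percent of each gene body that lies in a LAD, in genome order along the horizontal axis, with 1 bar per LAD list and a dot where the value is 0. Myh3 and Myh1 are at 0 in all 4 lists, Myh2 is highest in control adipocytes, Myh4 is at 100% in control adipocytes and in the single knockdown, and Myh8 stays between 72.6% and 100%.

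The developmental genes differed from each other. Myh3, the embryonic gene, stayed outside LADs throughout. The nearest LAD was 55.9 kb away in preadipocytes, 41.7 kb in control adipocytes, 47.9 kb in the single knockdown and 37.3 kb in the double knockdown. Myh8, the perinatal gene, lay mostly in a LAD throughout. It was covered over 100% of its body in preadipocytes, 84.3% in control adipocytes, 72.6% in the single knockdown and 91.0% in the double knockdown. Myh8 was thus lower by 15.7 points in adipocytes than in preadipocytes, opposite in sign to Myh2 and Myh4.

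The part of Myh8 outside the LAD changed ends between the lists. In control adipocytes and in the single knockdown its last exons were outside and its start was inside. In the double knockdown its end was inside and its start lay outside, 2.82 kb before the LAD. The window from 10 kb before to 15 kb after the start, which the study used for promoters, was covered over 100% in the first 3 lists and 48.7% in the double knockdown. By the gene body Myh8 was therefore 6.73 points higher in the double knockdown than in control adipocytes, and by the start window the difference was -51.3 points. The difference from preadipocytes to control adipocytes was 0 by the start window.

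Myh2, the IIa gene, had a different share in each list. Its body share was 24.1% in preadipocytes, 92.6% in control adipocytes, 0 in the single knockdown and 44.8% in the double knockdown, that is 6.40, 24.5, 0 and 11.9 kb. Coverage began at the 5′ end in each of the 3 lists where it was present, so these values mark how far into the gene the LAD reached. Exon bases followed the body, at 28.8%, 96.0%, 0 and 44.2%. The start site lay in a LAD in preadipocytes, control adipocytes and the double knockdown. The start window was covered over 65.6% in preadipocytes, 100% in control adipocytes, 30.3% in the single knockdown, by the LAD that ended before the gene, and 87.5% in the double knockdown. The differences in the body share were 68.4 points from preadipocytes to adipocytes, -92.6 points from adipocytes to the single knockdown and -47.8 points to the double knockdown. Over the start window the same differences were smaller, at 34.4, -69.7 and -12.5 points. By the body share the double knockdown was 44.8 points above the single knockdown. With LADs of at least 30 kb only, the body share in preadipocytes was 0 and adipocytes were 92.6 points above it. With LADs of at least 100 kb only, the body share was 0 in every list.

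Myh1, the IIx gene and the closest relative of Myh2 in sequence, lay between the LADs in every list as deposited. With gaps under 50 kb closed it lay wholly in a LAD in control adipocytes and stayed at 0 in the other lists, a difference of 100 points from preadipocytes and of -100 points for each knockdown. Its start window was covered over 22.0% in control adipocytes, by the LAD that ended in Myh2, and over 0 in the other lists. The adipocyte LAD stopped 3.99 kb from it on the side of Myh4. The nearest LAD was 22.6 kb away in preadipocytes, 6.39 kb in the single and 17.2 kb in the double knockdown. The stretch of 33.0 kb from the end of the adipocyte LAD in Myh2 to the start of the next held all of Myh1 and was free of LADs in all 4 lists.

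Myh4, the IIb gene, differed from Myh2 in the knockdowns. It was covered over 38.1% of its body in preadipocytes, 100% in control adipocytes, 100% in the single knockdown and 0 in the double knockdown. In preadipocytes the covered part was the 3′ end, with 51.7% of exon bases, and the start lay 14.0 kb from the LAD. In control adipocytes and the single knockdown the whole gene and its start lay inside. Over the start window the difference from preadipocytes to control adipocytes was 93.0 points, against 61.9 points over the body. In the double knockdown the nearest LAD began 19.5 kb beyond the gene, and 42.1 kb from its start. Where the single knockdown list had no LAD over Myh2 and kept one over Myh4, the double knockdown list covered part of Myh2 and none of Myh4.

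Myh13, the extraocular gene, lay at the edge. It was free of LADs in preadipocytes, control adipocytes and the single knockdown, at distances of 6.83, 18.0 and 21.7 kb. In the double knockdown the LAD over Myh8 reached 1.41 kb into the annotated gene, or 2.82% of its body, which includes the GENCODE start. The start window of Myh13 was covered over 45.6% in the double knockdown, 12.7% in preadipocytes and 0 in the other lists, and the body widened by 10 kb on each side over 16.3% in the double knockdown. The RefSeq start lies 5445 bp further on, and its promoter entry met no LAD in any list.

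The sequence between the members showed the same border shifts. The 16.7 kb between Myh4 and Myh8 were covered over 100% in preadipocytes, control adipocytes and the single knockdown, and not at all in the double knockdown. The 13.0 kb between Myh8 and Myh13 were covered over 47.6% in preadipocytes, 100% in the double knockdown and 0 in the other lists. Between Myh1 and Myh4 the LAD covered 69.9% of 13.2 kb in control adipocytes and 51.7% in the single knockdown, and none in preadipocytes or the double knockdown. Between Myh3 and Myh2 the covered share was 18.7%, 39.3%, 26.7% and 45.7% in the order preadipocytes, control adipocytes, single knockdown and double knockdown.

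Split base by base over the 4 lists, 48.7% of the locus (143 kb) lay in no LAD of any list and 10.4% (30.5 kb) in a LAD of all 4. The stretches common to all were 10.4 kb before Myh2 and 20.1 kb inside Myh8. Control adipocytes alone had 15.1 kb, made up of 12.7 kb in Myh2 and 2.40 kb before Myh4. A stretch of 20.9 kb, from before Myh4 into the gene, was shared by control adipocytes and the single knockdown. A further 28.1 kb from Myh4 into Myh8 was shared by these and preadipocytes. The double knockdown alone had 12.6 kb, at both outer ends, of which 8.23 kb lay before and in Myh13. Preadipocytes and the double knockdown together, without the other lists, had 11.1 kb from the last part of Myh8 into the stretch before Myh13.

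**Figure D3:**
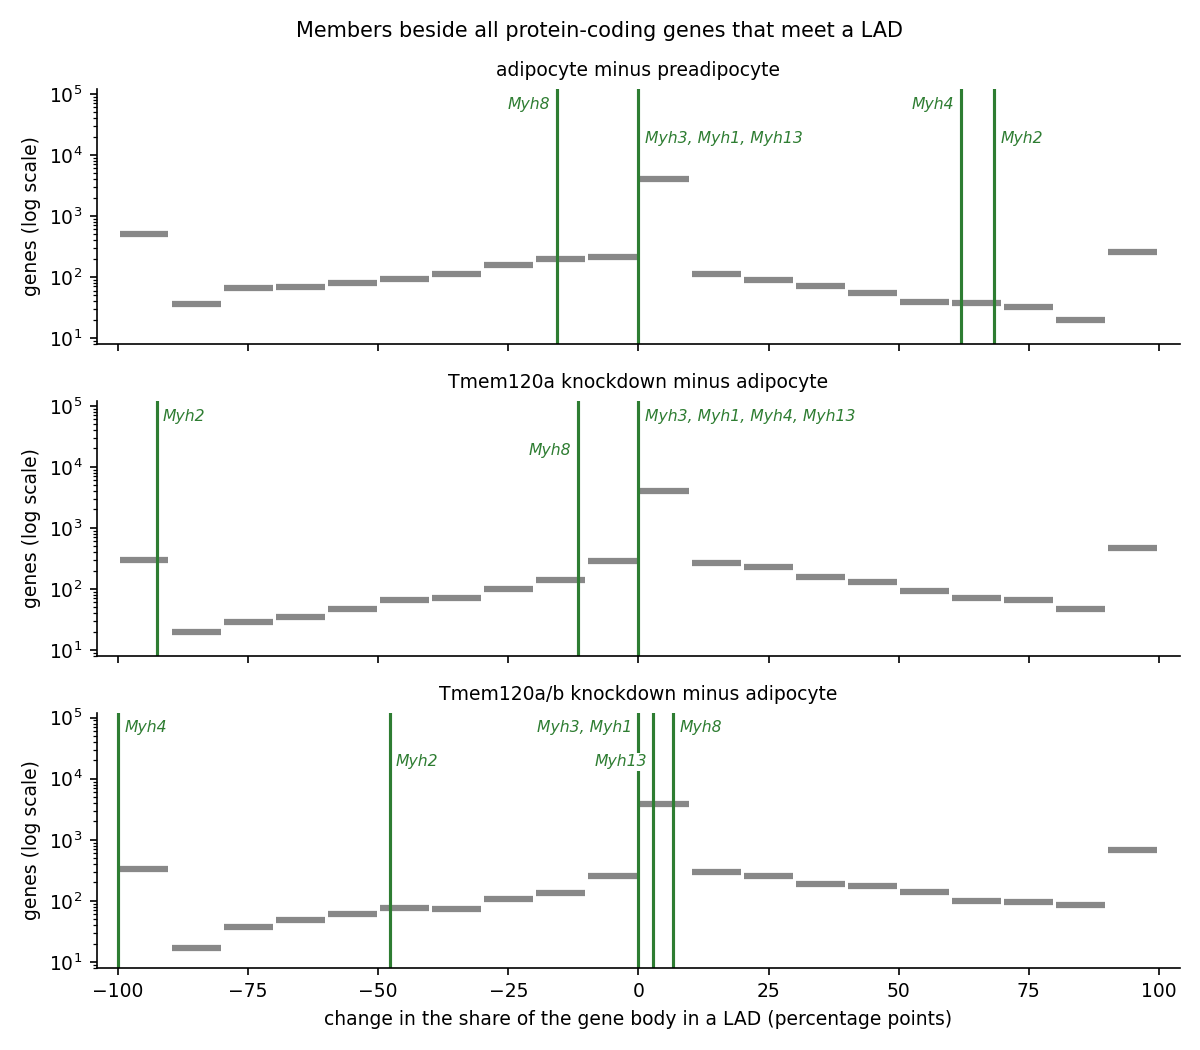
Change in the share of the gene body in a LAD, in percentage points, for the 3 comparisons named above the panels. Grey lines give the number of protein-coding genes in each bin of 10 points, on a log scale, among genes that met a LAD in either list, and green lines mark the members, those without a LAD in both lists standing at 0. Myh2 lies at 68.4, -92.6 and -47.8 points, and Myh4 at 61.9, 0 and -100.

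Changes of this size were set beside all protein-coding genes. From preadipocytes to adipocytes the body share of Myh2 and Myh4 rose by at least 25 points, 2 of 6 members, where 2.47% of all genes rose as much. No member fell by as much, against 4.60% of all genes. With Tmem120a knocked down Myh2 was lower than in control adipocytes by at least 25 points (2.71% of all genes) and no member was higher by as much (5.16%). In the double knockdown Myh2 and Myh4 were lower (3.09%) and no member was higher (7.16%). Over the start window, in place of the gene body, Myh2 in the double knockdown differed from control adipocytes by -12.5 points and no longer passed 25 points, Myh8 was lower (as were 3.53% of all genes over that window) and Myh13 was higher, by 45.6 points (7.03%). With gaps under 50 kb closed, Myh1 also rose by at least 25 points from preadipocytes to adipocytes (2.20% of all genes then did). It was lower by as much in the single (2.08%) and the double knockdown (2.41%). With the body widened by 10 kb, Myh1 was 25.9 points higher in adipocytes than in preadipocytes (2.73%). It then differed from adipocytes by -25.9 points in the double knockdown (3.55%) and by -17.7 points in the single knockdown. In the lists as deposited, from the single to the double knockdown Myh2 was higher (6.14%) and Myh4 lower (4.47%). Against preadipocytes, Myh4 was higher (4.84%) and Myh8 lower (4.61%) in the single knockdown. In the double knockdown Myh4 was lower (4.20%) and no member higher (6.00%). Over the start window these calls changed. Myh8 was then at 100% in both preadipocytes and the single knockdown, while Myh2 went from 65.6% to 30.3%. From preadipocytes to the double knockdown Myh4 went from 3.96% to 0, Myh8 from 100% to 48.7% and Myh13 from 12.7% to 45.6%. Over exons Myh8 was at 100% in preadipocytes and 83.6% in the single knockdown. For the knockdowns against preadipocytes, shares of all genes were counted over gene bodies only. The values over the start window and exons thus have no background beside them. The comparisons above share lists and are not independent of each other.

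The median change over the 6 members was 0 points in each of the comparisons of adipocytes with preadipocytes and of each knockdown with adipocytes, and so was the median over all genes. In the same order, with the single knockdown before the double, the mean over the members was 19.1, -17.4 and -23.0 points. Over all genes it was -1.77, 1.70 and 3.01 points. The members were chosen with these values known, so the means are a description. Over the 4 lists the highest and lowest body share differed by at least 50 points for Myh2 and Myh4, against 12.4% of all genes. Myh3, Myh1 and Myh8 had the same state by any overlap in all lists, as did 83.1% of all genes. Members were often cut by a border. Partly covered were Myh2 and Myh4 in preadipocytes (6.17% of all genes), Myh2 and Myh8 in control adipocytes (3.94%), Myh8 in the single knockdown (8.52%), and Myh2, Myh8 and Myh13 in the double knockdown (10.1%).

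The deposited differential regions recorded only part of this. Of the 1808 regions found in adipocyte and not in preadipocyte LADs, 1 lay in the locus, at 67042067 to 67065323. It was 23.3 kb long, covered 14.0 kb or 61.9% of Myh4, and was longer than 24.7% of the list. Of this region 89.7% remained in a LAD in the single knockdown and none in the double knockdown. Myh4 was the only member to meet such a region, as 3.08% of all genes did. No member met any of the 2021 regions found in preadipocyte and not in adipocyte LADs, which 5.76% of all genes met. The 18.1 kb of Myh2 that lay in the adipocyte and not in the preadipocyte LAD, from 66990925 to 67009051, were not listed. Neither were the 14.2 kb before Myh2, from 66957516 to 66971666. Also unlisted were 11.1 kb in the preadipocyte and not the adipocyte LAD, from 67117191 in Myh8 to 67128331 between Myh8 and Myh13. All 3 exceed the shortest deposited regions, of 8.07 and 8.04 kb. Over the genome 170 of 278 gained pieces of 14 to 19 kb were listed (61.2%), and the rule that left out the rest is not given in the sources used here.

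**Figure D4:**
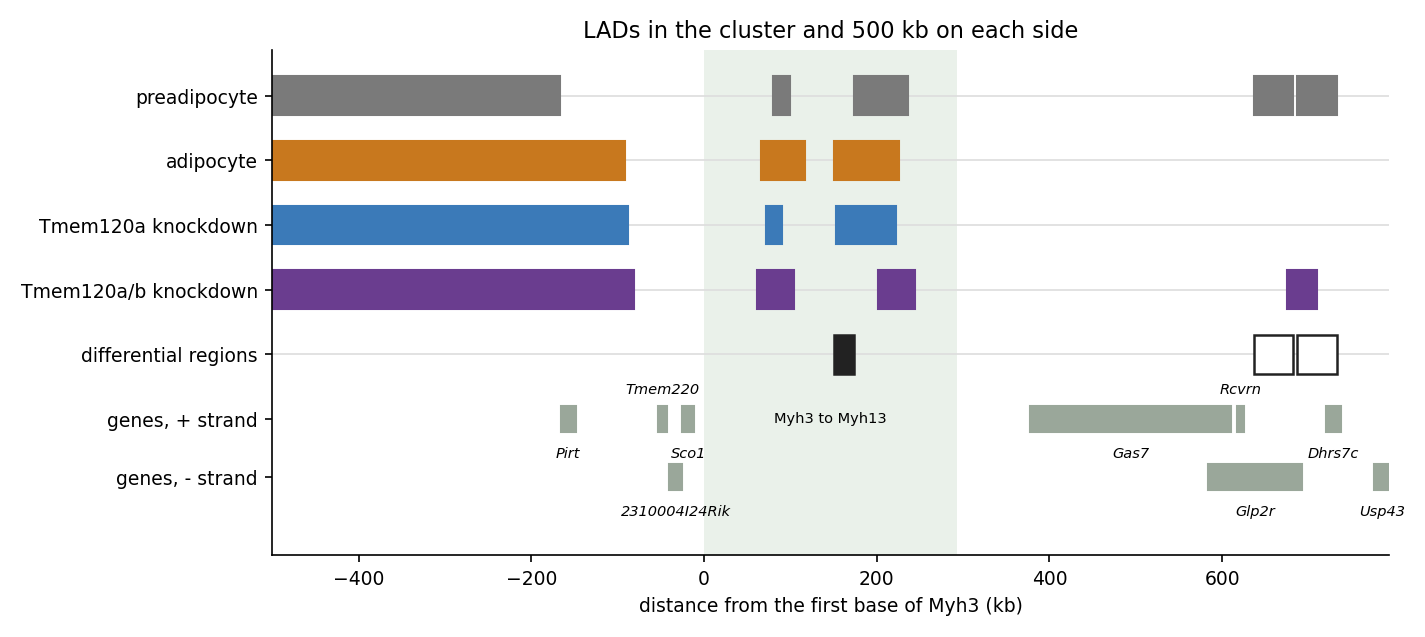
The locus (shaded) with 500 kb on each side, distance from the first base of Myh3 in kb along the horizontal axis. Filled bars are LADs of the 4 lists, the black box is a differential region of adipocytes and the open boxes are differential regions of preadipocytes. The LAD before the locus ends at -167 kb in preadipocytes and between -91.1 and -80.7 kb in the other lists.

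The locus lay between a long LAD and a stretch with few LADs. In the 500 kb before Myh3, LADs covered 66.7% in preadipocytes, 81.8% in control adipocytes, 82.5% in the single knockdown and 83.9% in the double knockdown. Relative to the start of Myh3, that LAD ended at -167 kb in preadipocytes, -91.1 kb in control adipocytes, -87.6 kb in the single knockdown and -80.7 kb in the double knockdown. Its end passed over Pirt, a membrane protein of sensory neurons, which was covered over 100% in all 3 adipocyte lists and met no LAD in preadipocytes. All 3 adipocyte lists placed this border nearer to Myh3 than preadipocytes did.

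In the 500 kb after Myh13, LADs covered 18.4% in preadipocytes, 6.93% in the double knockdown and none in control adipocytes or the single knockdown. Here lay 2 of the regions lost between preadipocytes and adipocytes, the nearer 343 kb from the locus. In the double knockdown 15.2% of the nearer and 49.3% of the further region were in a LAD again. The receptor gene Glp2r was covered over 47.0% in preadipocytes, 16.5% in the double knockdown and 0 in the others, and Dhrs7c, a dehydrogenase of striated muscle, over 74.6% in preadipocytes alone. Tmem220, 2310004I24Rik, Sco1, Gas7, Rcvrn and Usp43 met no LAD in any list. Gm10995, on the opposite strand across the end of Myh2 and the start of Myh1, was covered over 69.1% in control adipocytes, 7.03% in the double knockdown and 0 in the others.

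Of 8 myosin heavy chain genes outside the cluster, listed by family, Myh6 of the heart, Myh7 of the heart and slow fibres, Myh7b, and the smooth muscle and nonmuscle genes Myh9, Myh10, Myh11 and Myh14 met no LAD in any list. Myh15 was covered over 100% in preadipocytes, control adipocytes and the double knockdown and 75.7% in the single knockdown. In any single list only 23.3% to 29.5% of all genes met a LAD. The share of all genes that met none in all 4 lists was not counted, so nothing is read from these counts. Thick filament partners were taken from a list of 15 genes chosen by function. Of these, 5 met a LAD in preadipocytes, 2 in control adipocytes, 4 in the single knockdown and 4 in the double knockdown, where shares of all genes are those given above for any overlap.

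The partners differed among themselves. Myl1, a fast alkali light chain, was covered over 100% in preadipocytes and the double knockdown and 0 in the others. Mybpc1, the slow myosin binding protein C, was at 100%, 0, 44.5% and 71.3% in the order preadipocytes, control adipocytes, single knockdown and double knockdown. Myom2, an M-band protein, was at 0, 61.6%, 20.8% and 12.5% and was the only partner higher in control adipocytes than in each other list. Ttn, the giant filament titin, stayed at 98.9%, 91.0%, 87.3% and 81.2%. Unc45b, a myosin chaperone, was at 42.8%, 0, 94.8% and 0. Smyd1, a methyltransferase of muscle, was covered over 31.8% in preadipocytes alone. The other 9 partners met no LAD in any list, a state whose share among all genes was not counted.

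Likeness to Myh2 was measured as the summed absolute difference in the body share over the 4 lists, among 13499 protein-coding genes of at least 10 kb outside the locus. Wdr44 was nearest, at 25.6 points, with 31.3%, 93.1%, 0 and 26.9% in the order preadipocytes, control adipocytes, single knockdown and double knockdown. Gm6086 followed at 33.3 points, Adam28 at 35.4, Sema3e at 36.7 and Frmpd4 at 37.9. None was on chromosome 11. With 4 values per gene such likeness is a description.

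Base composition and repeated sequence were examined because the members resemble each other. GC content was 42.6% to 45.1% in Myh2, Myh1, Myh4, Myh8 and Myh13 and 49.3% in Myh3, against 43.9% over the locus and 43.8% over chromosome 11. Of all 50-base words in Myh2, 6.15% occurred elsewhere in the locus as well, and 6.01% in Myh1, 4.63% in Myh8, 4.32% in Myh4, 1.47% in Myh3 and 0.886% in Myh13. How reads from repeated sequence were handled is not given in the sources used here, and their part in the borders was not tested.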

How the data were processed

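LaminB1-DamID of 3T3-L1 cells was analysed from the deposited lists, which hold positions (chromosome, start and end, in bp of mm9) without score, signal or counts. Per the labels and the study's methods, the authors mapped reads to mm9 with BWA, computed a LaminB1-Dam over Dam log ratio per DpnI fragment, called LADs with DNAcopy and listed regions differing between preadipocyte and adipocyte LADs. limma is also named in the submitters' processing notes, without a role. Lists were assigned to conditions by the abbreviations they carry.

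Overlaps were computed per base with numpy 2.4.6 in Python 3.11.15, plots with matplotlib 3.10.9 and coding alignments with Biopython 1.88. The overlap code was tested on 4000 simulated intervals, with 0 mismatches. Starts were read as counting from 0 and are printed counting from 1. Genes came from GENCODE vM1 (NCBIM37, the assembly of mm9), promoters from RefSeq. Protein sequences were not used here.

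The preadipocyte list held 3914 LADs over 1193 Mb, the control adipocyte list 2542 over 1198 Mb, the single knockdown list 5723 over 1164 Mb and the double knockdown list 6971 over 1161 Mb. The members, gene lists and rules were chosen with earlier results of these data known. Genes were named by rule: the 6 members, protein-coding genes within 500 kb, 8 other myosin heavy chain genes, thick filament partners that met a LAD, and the 5 genes most like Myh2 or the locus. A change was counted from 25 points for genes and 10 points for windows. Alternatives covered LAD length, gaps, coordinate base, locus bounds, the part of the gene, the overlap and the genes counted.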

Additional observations from a re-analysis of the deposited data

How the results depend on the processing

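The locus differences between preadipocytes and adipocytes and between adipocytes and each knockdown kept their direction under nearly all alternatives run on the locus. These alternatives covered LAD length, gaps, coordinate base and locus bounds. The exception was a minimum LAD length of 100 kb, at which no LAD remained in the locus. All 4 shares and the 3 differences were then 0, and 0 members met a LAD in each list. Of all genes, 21.8% in preadipocytes, 21.1% in control adipocytes, 20.1% in the single and 20.6% in the double knockdown still met a LAD. With LADs of at least 30 kb only, the share was 21.5% in preadipocytes and 23.5% in the single knockdown, adipocytes minus preadipocytes was 21.7 points, the single knockdown minus adipocytes -19.6 points, and the double minus the single knockdown 5.91 points, reversed from -0.352, because the first LAD of the locus, under 30 kb in the preadipocyte and single knockdown lists, dropped out of both. Myh2 then went from 24.1% to 0 in preadipocytes and its difference to adipocytes from 68.4 to 92.6 points. With gaps under 50 kb closed, the adipocyte share was 54.4% and the differences 26.4, -24.6 and -25.0 points, and Myh1 lay wholly in a LAD in adipocytes and in no other list. With the locus widened by 50 kb on each side the shares were 20.9%, 32.2%, 22.2% and 22.0%, and over gene bodies alone the double knockdown share was 23.4%. With the body widened by 10 kb, 4 members met a LAD in the single knockdown, as 30.2% of all genes did, and with at least 50% of the body required, 1 did in preadipocytes and 1 in the double knockdown. Over the start window, Myh8 in the double knockdown was -51.3 points from adipocytes, reversed from 6.73. Of the shares of single members and their differences between lists over all alternatives, 254 moved by less than 5 points from those reported, 81 moved by 5 points or more and 1, the difference in Myh8, reversed. The 254 include every value of Myh3, at 0 in all settings, and every value with starts counted from 1. The tally thus does not measure how steady the values of Myh2, Myh4 and Myh8 were. Reading starts as counting from 1, or closing gaps under 20 kb, changed none of the locus shares by 5 points. No paired analysis was possible because each condition has 1 library pair and the result comes from no test.

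The lists carry no depth and no replicate, so neither counting error nor the spread between cultures can be given for any border. No border shift has been set against a repeat of the same condition.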

Other observations

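The locus also holds 4 noncoding genes in the annotation. 2310065F04Rik, between Myh3 and Myh2, 9430073C21Rik, across the end of Myh2, and a 7SK copy met no LAD in any list. Gm12300 was covered over 34.2% in control adipocytes and 25.1% in the single knockdown, and over 0 in preadipocytes and the double knockdown.

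The genes whose 4 body shares were nearest to the 4 shares of the locus as a whole, among the same 13499 genes, were Celf4, at a summed difference of 14.8 points, Htr2c at 18.7, Dner at 19.9, Nos1 at 20.2 and Sv2b at 22.2. Of these Celf4, Htr2c, Dner and Sv2b were covered more in control adipocytes than in each other list, whereas Nos1 was covered over 26.4% in preadipocytes, 29.2% in control adipocytes, 31.2% in the single knockdown and 32.5% in the double knockdown.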
